A study of Homo sapiens with 21 samples.

Results

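The respiratory chain of the mitochondrial inner membrane was followed through the mRNAs of its nuclear genes in HepG2, a human hepatocellular carcinoma line, after exposure to caffeine. Members were taken by symbol: the subunit genes of complex I (NDUF names), complex II (SDHA to SDHD), complex III (UQCR names and CYC1), complex IV (COX4 to COX8 names) and complex V, the ATP synthase (ATP5 names). Of the 37637 features in the count table, 101 had a matching symbol, and 18 of these were pseudogenes and were left out. The 83 members left were 37 genes of complex I, 4 of complex II, 9 of complex III, 15 of complex IV and 18 of complex V, with NDUFA4 counted under complex IV. Enough counts for testing were present for 78 of the 83.

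Complexes I and II pass electrons from NADH and from succinate to coenzyme Q, complex III passes them on to cytochrome c, and complex IV hands them to oxygen. Complexes I, III and IV pump protons, and the ATP synthase lets the protons back to make ATP. Mitochondrial DNA encodes the hydrophobic core of each complex but complex II, and all other subunits are encoded in the nucleus, made in the cytosol and imported, so that a working complex needs both genomes. Liver cells rely on this chain for much of their ATP, although carcinoma lines grown in glucose lean more on glycolysis.

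The 21 libraries form 7 groups of 3 replicates. Untreated controls received serum-free DMEM without caffeine, and the treated groups received caffeine at 0.01, 0.1, 1, 10, 100 or 1000 µM in the same medium, all for 24 h. HepG2 is a single tumour-derived line, so no group carries a genetic change of its own, and all groups share the loss of serum. Nothing in the labels says that replicates came from separate cultures on separate days, so the p-values measure the spread between these samples, which may be technical. Because each library is bulk RNA, fewer cells that express a gene and less RNA per cell cannot be told apart.

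Total counts per library ran from 23502519 to 44815552. Reads on mitochondrially encoded genes split the libraries, also within the 1, 100 and 1000 µM groups. The 13 mitochondrial mRNAs divide the libraries into 3 sets, A, B and C, which are not groups of the study. The 11 libraries of set A, with 9.95% to 14.2% of counts on mitochondrial genes, are those of the 3 lowest dose groups (0, 0.01 and 0.1 µM) plus the first 2 replicates of the 1 µM group. The 7 libraries of set B, with 4.72% to 4.94%, comprise the whole 10 µM group, the third replicate of the 1 µM group, the second of the 100 µM group and the first 2 of the 1000 µM group. The other 3 libraries, 2 of the 100 µM group and the third of the 1000 µM group, make up set C, with 11.8% to 12.8%. Control and 10 µM libraries thus share no set. The counts of members called at each dose are therefore given without and with the set as a term in the fit. With the term, a difference between control and 10 µM or more is read through the 1 µM group, the sole dose with libraries of both sets A and B, and so through 1 set B library. The hepatocyte markers of the line were present in every library, with a summed level of 28170 to 42830 CPM (counts scaled by library size). Among markers of leukocytes, endothelium and fibroblasts, LYZ passed the filter on low counts. CD3E was at 0 throughout, PTPRC, the pan-leukocyte marker, was at most at 0.0383 CPM, and the endothelial and fibroblast markers were at most at 0.249 CPM in any library.

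Levels of the subunit mRNAs per transcript length, as means over the 21 libraries, differed between subunits. On the scale of CPM per kilobase of the longest principal transcript (APPRIS tag in GENCODE 29), ATP5F1B, the catalytic beta subunit of the ATP synthase, was at 336 and COX6A1, a small complex IV subunit, at 285. ATP5F1C of the ATP synthase was at 206. UQCRH, the acidic hinge protein of complex III, was at 169.9 and COX4I1, the subunit of complex IV that binds regulatory nucleotides, at 169. The scale depends on the transcript length used, and ATP5F1A, at a mean of 454 CPM, was at 78 over 5818 bases. The 5 members without enough counts were 4 complex IV genes known as tissue-restricted forms and the ATP synthase gene ATP5MGL. COX6B2, the testis form of the 6B subunit, had at most 16 counts in any library. ATP5MGL had at most 5, COX4I2, the lung form of the fourth subunit, had 2 counts over all libraries, and COX7A1 (heart and muscle) and COX8C (testis) had 1 each. Their common counterparts COX6B1, COX4I1, COX7A2 and COX8A passed the filter.

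Summed over the subunits of a complex, the nuclear mRNAs of complex IV lay above the controls at 10, 100 and 1000 µM. Those of complexes I, II and V did so at 10 and 100 µM. Complex III overlapped with the controls at all 3 of these doses. Complex II also lay above the controls (342 to 353 CPM) at 0.01 µM (361 to 393 CPM) and at 1 µM (359 to 401 CPM). The complex IV members summed to 692, 746 and 758 CPM in the controls, 963, 925 and 853 CPM at 10 µM, 1140, 911 and 1085 CPM at 100 µM, and 910, 955 and 957 CPM at 1000 µM. The lowest library at these 3 doses lay above the highest control. At 1 µM the sums were 831, 726 and 1008 CPM, and the library at 1008 CPM was replicate 3, the set B library. Complex V summed to 1864, 1970 and 2269 CPM in the controls and to 2630, 2581 and 2441 CPM at 10 µM, and at 1 µM to 2357, 1991 and 2690 CPM, again with replicate 3 on the side of the 10 µM libraries. Complex I summed to 1645, 1698 and 1836 CPM in the controls and 2045, 2056 and 1883 CPM at 10 µM, but 1922, 1964 and 1753 CPM at 1000 µM, which overlaps with the controls. Complex II stayed between 331 and 401 CPM in all 21 libraries and complex III between 861 and 1079 CPM.

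**Figure D1:**
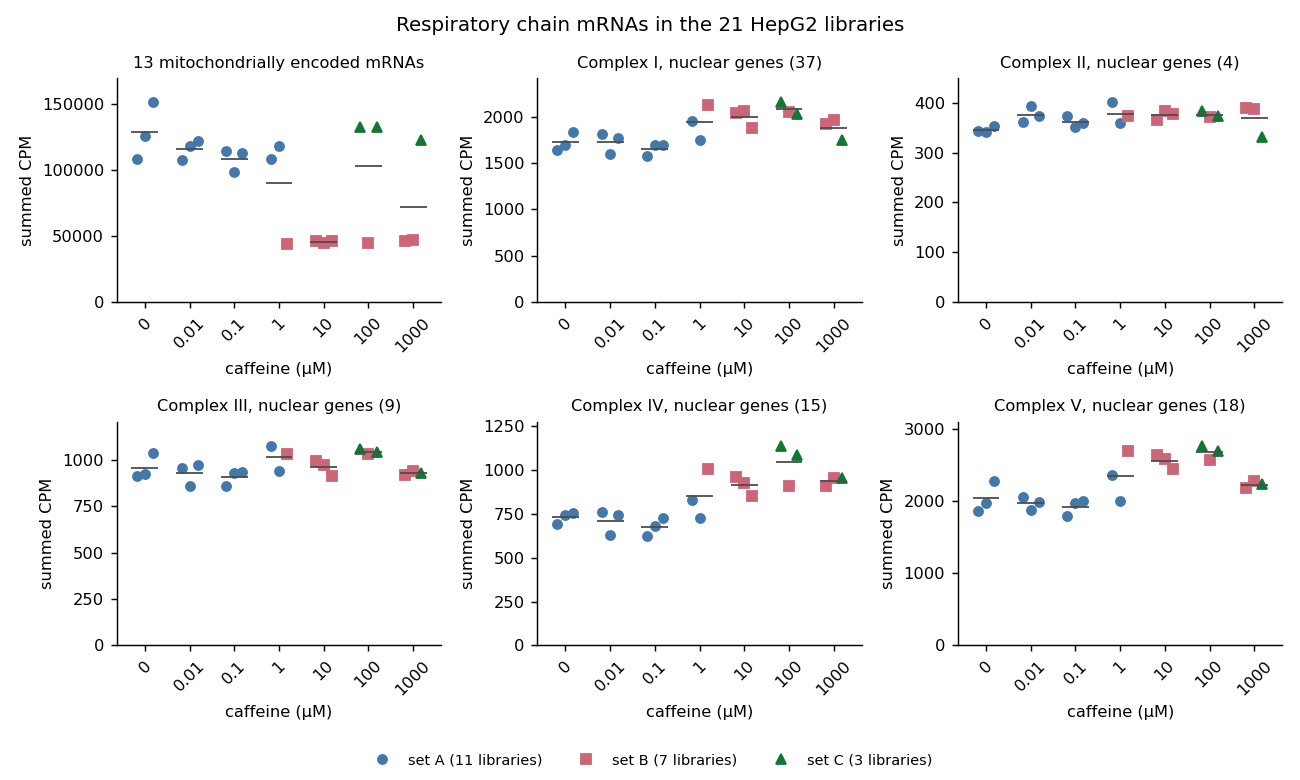
Summed CPM (TMM-scaled) of the 13 mitochondrially encoded mRNAs and of the nuclear members of each complex, per library, against the caffeine dose in µM; points are libraries, shapes and colours the 3 library sets, and grey bars the group means. Replicate 3 at 1 µM (set B) sits with the 10 µM libraries for complexes IV and V, at 1008 and 2690 CPM, while complex II stays between 331 and 401 CPM.

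The mitochondrially encoded partners did not follow the same order. Their 13 mRNAs summed to 98320 to 151200 CPM in set A, 44350 to 46890 CPM in set B and 123100 to 132500 CPM in set C. The 3 mitochondrial subunits of complex IV summed to 59253 to 87802 CPM in set A and 23885 to 27272 CPM in set B, so that the mitochondrial and nuclear subunits of complex IV lay on opposite sides in these sets. In set C the mitochondrial subunits of complex IV were back at 57187 to 59081 CPM, while those of complex I were at 55707 to 63865 CPM, above the highest set A library at 55254 CPM. The sets were defined on these 13 mRNAs, so their differences between sets describe the sets and no test applies. At the same dose their median log2 fold change was -1.07 for set B against set A and 1.47 for set C against set B.

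At the 3 lowest doses no member passed an adjusted p of 0.05 in edgeR's quasi-likelihood test. The Benjamini-Hochberg adjustment ran over all features tested, 17951 with all 21 libraries and 18323 within set B. This test is the source of every adjusted p given here unless another is named. At 0.01 µM, 0 of 78 members were called against 0.0279% of all features, with 13 members and 15.0% of all features at an unadjusted p under 0.05, and DESeq2 called 2 members and 2.21% of all features. At 0.1 µM, 0 were called against 0.0% of all features, with 10 members and 9.48% of all features at an unadjusted p under 0.05, and DESeq2 called 0 members and 0.29% of all features. At 1 µM, 0 were called against 0.106% of all features, with 14 members and 15.7% of all features at an unadjusted p under 0.05, and DESeq2 called 3 members and 2.37% of all features. With the set as a term, NDUFV1, the flavoprotein of complex I that accepts electrons from NADH, was the 1 member called at 0.01 µM, where 3.02% of features were (0.841% higher). Control and 0.01 µM libraries are all in set A, so here the term acts mainly through the spread estimated over all libraries. The NDUFV1 mRNA was at 67.9, 68.8 and 52.3 CPM in the controls and 79.2, 75.8 and 84.6 CPM at 0.01 µM, so the groups did not overlap, and the log2 fold change with the term was 0.34 ± 0.09 (SE, adjusted p = 0.0452). At 0.1 and 1 µM 0 members were called with the term, against 0.0223% and 0.629% of features, and 27 and 13 had an unadjusted p under 0.05, as did 15.4% and 17.1% of all features. Within set A alone edgeR called no member at 0.01, 0.1 or 1 µM, where 0.104%, 0.0% and 0.0% of all features were called.

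At 10 µM, 24 members were called, 22 higher and 2 lower than control, against 14.8% of all features called, with 7.27% higher and 7.49% lower. The median log2 fold change of the 78 was 0.22, where that of all features was 0.00. In complex IV 6 of 11 tested members were higher and none lower (median 0.48), in complex V 5 of 17 were higher and none lower, and in complex I 10 of 37 were higher and 1 lower. Complex III had 1 higher and 1 lower of 9, and none of the 4 complex II genes was called.

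COX7A2, a small membrane subunit of complex IV, had the largest rise of its complex at 10 µM. Its mRNA was at 21.8, 25.6 and 32.5 CPM in the controls and 50.8, 53.8 and 48.7 CPM at 10 µM, a log2 fold change of 0.94 ± 0.21 (SE, adjusted p = 0.00974). The 3 libraries at 10 µM were all above the controls. The libraries at 1 µM were at 32.5, 25.9 and 55.2 CPM, and the third of these, in set B, lay above all 3 libraries at 10 µM. COX5B, a nuclear subunit on the matrix side that binds zinc, followed the same course, at 48.7, 51.5 and 52.9 CPM in the controls, 58.6, 56.9 and 113 CPM at 1 µM and 101, 92.3 and 90.1 CPM at 10 µM. COX7C, another small membrane subunit, was at 34.9, 39.0 and 44.6 CPM in the controls, 43.6, 35.9 and 72.5 CPM at 1 µM and 72.4, 67.8 and 61.1 CPM at 10 µM. COX4I1, often used to follow the whole complex, went from 126 ± 7.24 CPM (SD, n = 3) in the controls to 164 ± 10.4 CPM (SD, n = 3) at 10 µM, a log2 fold change of 0.38 ± 0.09 (SE, adjusted p = 0.0111).

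In complex I the largest rise was that of NDUFA2, an accessory subunit near the NADH-binding end with a thioredoxin-like fold. NDUFA2 mRNA was at 9.96, 10.1 and 11.7 CPM in the controls, 11.1, 10.6 and 24.2 CPM at 1 µM and 23.6, 23.8 and 18.8 CPM at 10 µM. The log2 fold change at 10 µM was 1.06 ± 0.22 (SE, adjusted p = 0.00534). NDUFB8, an accessory subunit whose protein is widely used as a sign of assembled complex I, was at 61.0, 60.1 and 65.3 CPM in the controls and 95.8, 89.0 and 81.2 CPM at 10 µM, and it too was high in the third library at 1 µM, at 98.8 CPM. The largest fall in complex I was that of NDUFS5, an accessory subunit that faces the intermembrane space, at -0.45 ± 0.15 (SE, adjusted p = 0.0421).

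In the ATP synthase the largest rise was that of ATP5F1D, the delta subunit of the rotating central stalk. The ATP5F1D mRNA was at 23.1, 22.9 and 16.4 CPM in the controls, 28.8, 22.0 and 50.8 CPM at 1 µM and 43.6, 46.5 and 35.7 CPM at 10 µM, a log2 fold change of 1.01 ± 0.26 (SE, adjusted p = 0.0179). ATP5F1A, the alpha subunit of the catalytic head, was at 416, 419 and 454 CPM in the controls and 588, 552 and 542 CPM at 10 µM. In complex III UQCRC2, a core protein, was higher with a log2 fold change of 0.36 ± 0.08 (SE, adjusted p = 0.00793), and UQCRB, a small subunit that binds near the quinone site, was lower at -0.72 ± 0.19 (SE, adjusted p = 0.0175).

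Adding the library set as a term left none of the 24 calls at 10 µM. Then 0 of 78 members were called by edgeR's quasi-likelihood test, against 0.0279% of all features, and 2 members and 4.94% of all features had an unadjusted p under 0.05. The median log2 fold change was -0.02, and 40 of the 78 members changed sign. COX7A2 went from 0.94 to 0.02 ± 0.25 (SE) and NDUFA2 from 1.06 to -0.09 ± 0.19 (SE). Since the controls are all in set A and the 10 µM libraries all in set B, dose and set cannot be told apart in the direct comparison. The count without the term also depended on single libraries. It was 13 and 14 without control replicates 1 and 2, and 8, 10 and 14 without 10 µM replicates 1, 2 and 3. The share of all features called in these fits is not set beside them, so no change particular to the members is read from them. The call of ATP5F1D was lost without control replicate 3 or 10 µM replicate 1 or 2 (adjusted p up to 0.068), that of UQCRB without control replicate 3 or 10 µM replicate 1 or 3 (up to 0.0964), and that of NDUFS5 without any of 8 single libraries (up to 0.19).

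The sets themselves were then compared at the same dose. Set B against set A rests on 1 library against 2 at 1 µM, so the spread comes mainly from the other dose groups and the lone set B library is assumed to vary like them. This comparison called 20 members, all higher, against 6.57% of all features, with 3.45% higher. Complex IV had 5 of 11 higher (median 0.55), complex I 9 of 37 and complex V 5 of 17. COX5B had the largest rise of complex IV, at 0.97 ± 0.16 (SE, adjusted p = 0.00121), and ATP5F1D of complex V, at 1.00 ± 0.23 (SE, adjusted p = 0.0174). NDUFA1, a small complex I subunit encoded on the X chromosome, was at 9.18, 7.05 and 18.7 CPM at 1 µM, a difference of 1.21 ± 0.30 (SE, adjusted p = 0.0255). In complex III UQCRQ was the member called, at 0.68 ± 0.18 (SE, adjusted p = 0.0285). Without 1 µM replicate 2 the count fell to 4, without the calls of NDUFA1, UQCRQ and ATP5F1D (adjusted p from 0.14 to 0.16), with the replicate number as a block it was 10, and without 1 µM replicate 3 the difference could not be estimated. The share of all features called in these reduced fits is not given beside the counts, so no loss particular to the members is read from them. A split of the libraries at a mitochondrial share of 8%, in place of the 3 sets, called 25 members at the same dose, 15 higher and 10 lower in the low libraries, against 24.7% of all features (12.5% higher, 12.2% lower). With that split UQCRQ had the opposite sign, at -0.57, and was not called. The summed level of the markers of other cell types, nearly all of it LYZ (lysozyme), was 802 to 1021 CPM in set A and 1219 to 1905 CPM in set B (1349 to 1634 CPM in set C), and its part in the result was not tested.

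**Figure D2:**
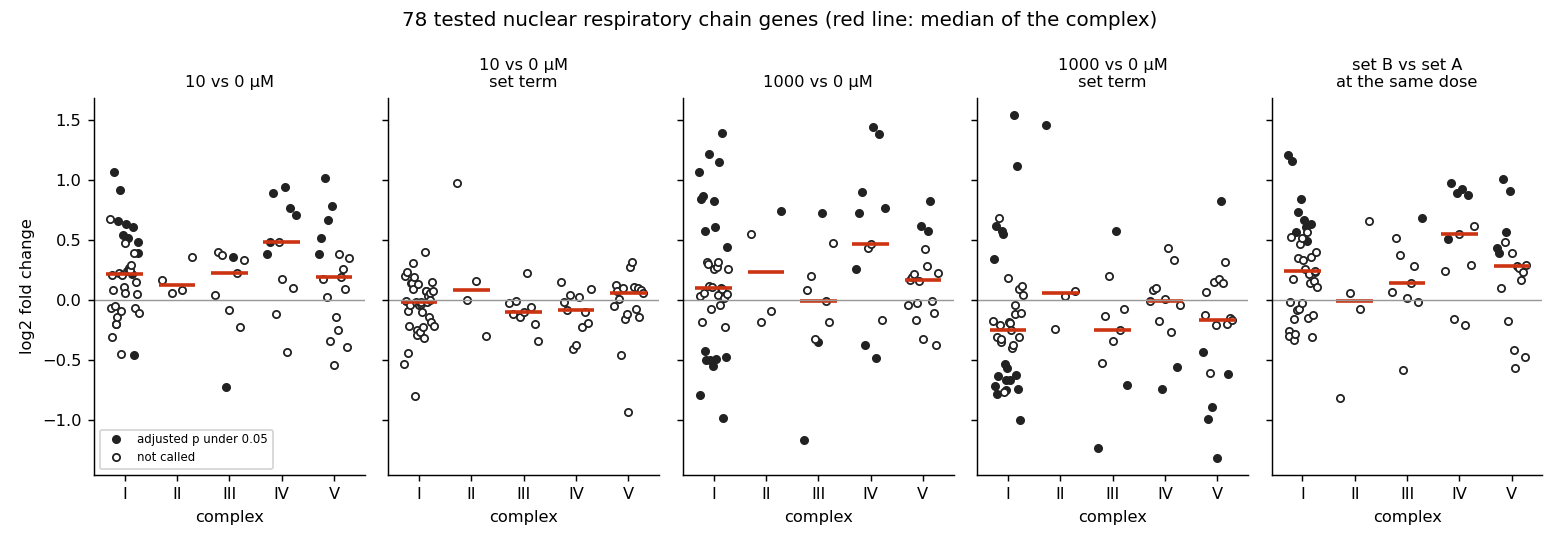
Log2 fold changes of the 78 tested members by complex for 10 and 1000 µM against control, each without and with the library set as a term, and for set B against set A at the same dose; each point is 1 gene, filled where the adjusted p is under 0.05, and red lines are medians. The complex IV median is 0.48 at 10 µM without the term and -0.08 with it, and 0.55 between the sets.

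At 100 µM, 43 members were called, 41 higher and 2 lower, against 46.6% of all features, with 23.6% higher and 22.9% lower. The median of the 78 was 0.35 and that of all features -0.01. Complex I had 20 of 37 higher and none lower, complex V 10 of 17 higher, complex IV 7 of 11 higher and 1 lower (median 0.68), and complex III 3 higher and 1 lower of 9. The largest rises per complex were those of NDUFA2, at 1.37 ± 0.22 (SE), UQCRQ, at 1.49 ± 0.34, COX7A2, at 1.41 ± 0.22, ATP5MF, at 1.38 ± 0.39, and SDHD, the small membrane anchor of complex II, at 0.58 ± 0.17. Their adjusted p-values ran from 3.99e-05 to 0.0088. The falls were those of UQCRC1, the other core protein of complex III, at -0.25 ± 0.09 (SE, adjusted p = 0.0245), and COX6A1, at -0.28 ± 0.09 (SE, adjusted p = 0.0111). The call of UQCRC1 was lost without control replicate 1 or 2 or 100 µM replicate 1 or 3 (adjusted p up to 0.13), that of COX6A1 without control replicate 2 or 100 µM replicate 3 (up to 0.0693), and that of SDHD without control replicate 1 (0.0587).

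ATP5MF and UQCRQ are 2 examples of members whose libraries at 100 µM differed. ATP5MF, the f subunit of the ATP synthase membrane part, was at 106, 33.2 and 101 CPM, where the controls were at 26.0, 28.8 and 37.2 CPM. UQCRQ, a small subunit of complex III that binds ubiquinone, was at 47.6, 15.9 and 41.2 CPM, where the controls were at 12.6, 10.5 and 14.0 CPM. In both, replicates 1 and 3 (set C) were high and replicate 2 (set B) lay within or close to the controls. At 1000 µM the library of set C, replicate 3, was again the high one, with ATP5MF at 25.2, 27.8 and 70.7 CPM and UQCRQ at 12.4, 13.1 and 26.0 CPM.

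Set C against set B at the same dose called 33 members, 27 higher and 6 lower, against 26.9% of all features, with 13.4% in each direction. Without 100 µM replicate 2 the split was 15 higher and 9 lower, against 22.4% of all features in either direction, and with no filter on low counts 27 and 14. ATP5MF had the largest rise of the ATP synthase, at 1.53 ± 0.13 (SE, adjusted p = 9.65e-08), NDUFB1 of complex I, at 1.45 ± 0.25, UQCRQ of complex III, at 1.26 ± 0.13, and COX6B1 of complex IV, at 0.75 ± 0.15. The largest falls, 1 per complex, were those of NDUFC2, a complex I membrane subunit, at -1.05 ± 0.18 (SE, adjusted p = 0.000559), COX5B, at -0.66 ± 0.12, and ATP5F1B, at -0.32 ± 0.07. The call of COX5B was lost without 1000 µM replicate 3 (adjusted p = 0.0507). Over the 78 tested members the rank correlation of this difference with transcript length (here the median over a gene's protein-coding transcripts) was -0.38, and over 12843 protein-coding features it was -0.30. These values describe genes measured in the same libraries, and genes are not independent replicates. The median difference was 0.24 for the 54 members under 1000 bases and 0.0011 for the 24 of 1000 bases or more. For all protein-coding features the medians were 0.18 under 1000 bases and -0.020 above. All members had a median length of 750 bases and all protein-coding features one of 2486 bases. For set B against set A the correlation was -0.09 over the members and -0.00058 over the protein-coding features. For 1000 against 100 µM it was 0.36 and 0.24, and for 1000 µM against control with the set as a term 0.20 and 0.18.

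Once the set was a term, 5 members were called at 100 µM, all higher, against 17.3% of all features, with 9.14% higher. NDUFAB1 and UQCRC2 were called in the same direction in both fits. NDUFAB1, the mitochondrial acyl carrier protein, which serves fatty acid synthesis in mitochondria besides being part of complex I, was at 34.6, 36.7 and 41.7 CPM in the controls and 93.8, 98.9 and 90.0 CPM at 100 µM. Its log2 fold change was 1.32 ± 0.16 without and 0.74 ± 0.20 (SE, adjusted p = 0.0141) with the term. The other 3 were NDUFA9 (0.66), NDUFC2 (1.37) and ATP5MG (0.84), called with the term alone. SDHD changed from 0.58 to -0.09 and UQCRQ from 1.49 to -0.16.

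The c ring of the ATP synthase is made of 1 protein encoded by 3 genes, whose products differ only in the targeting sequence that is cut off after import. ATP5MC1 was at 32.6, 39.2 and 36.7 CPM in the controls, 56.4, 63.5 and 52.3 CPM at 10 µM, 89.2, 54.1 and 87.8 CPM at 100 µM and 29.3, 27.6 and 50.2 CPM at 1000 µM. ATP5MC3 was at 94.1, 102 and 105 CPM in the controls, 178, 176 and 164 CPM at 10 µM, 179, 191 and 173 CPM at 100 µM and 158, 175 and 128 CPM at 1000 µM. Both were also high in the set B library at 1 µM, at 62.1 and 184 CPM. ATP5MC2 was at 81.0, 85.0 and 78.7 CPM in the controls and 67.5, 66.9 and 59.0 CPM at 10 µM, and its 3 highest libraries, at 119, 111 and 109.7 CPM, were those of set C. Given the set, ATP5MC1 was the 1 gene of the 3 called at 1000 µM, at -0.89 ± 0.18 (SE, adjusted p = 0.000608), where the value without the term was -0.02 ± 0.22.

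**Figure D3:**
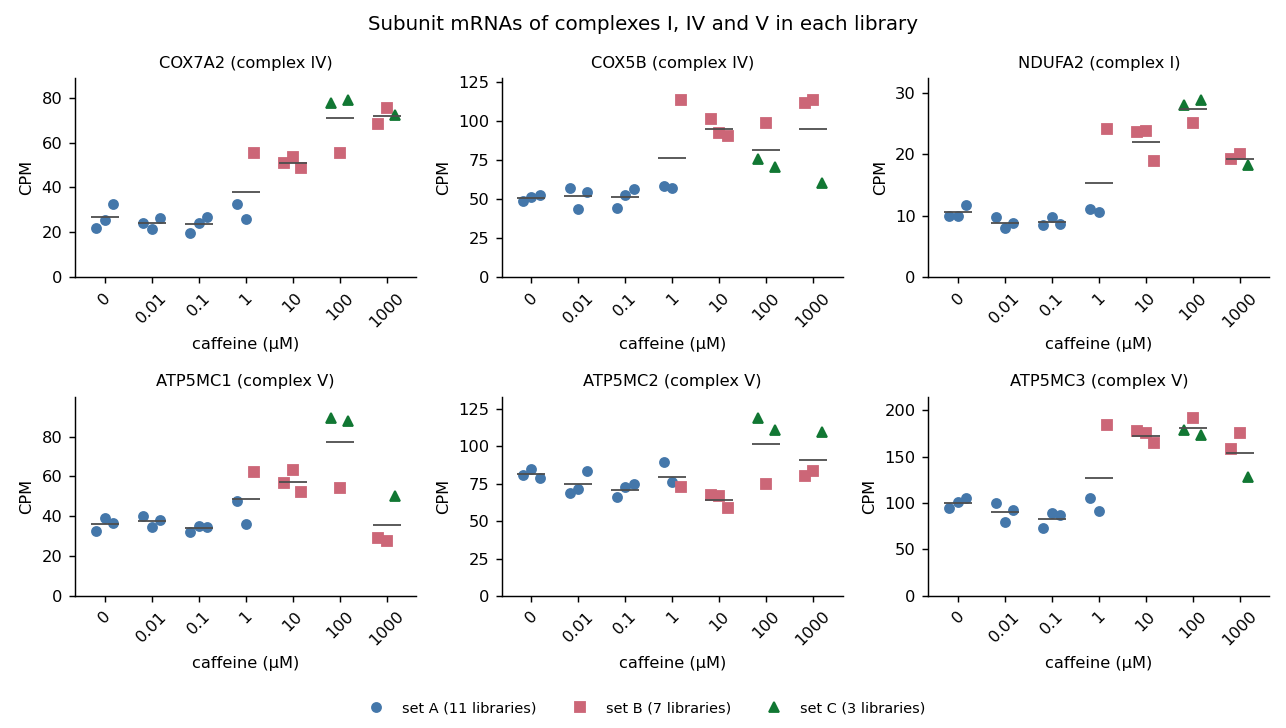
CPM of 6 subunit mRNAs of complexes I, IV and V in each library against the caffeine dose in µM; points are libraries, shapes and colours the library sets, grey bars the group means. For COX7A2, COX5B, NDUFA2, ATP5MC1 and ATP5MC3 replicate 3 at 1 µM lies above the other 2 libraries of its dose, and ATP5MC2 is highest in the 3 libraries of set C.

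At 1000 µM, 33 members were called, 21 higher and 12 lower than control, against 57.6% of all features, with 28.5% higher and 29.1% lower, so a smaller share of the members than of all features was called. The median was 0.14. With the set as a term the count was 29, against 38.0% of all features (18.2% higher, 19.8% lower), but 9 were higher and 20 lower, and the median was -0.18 where that of all features was -0.03. By transcript length, the medians with the term were -0.19 for the members under 1000 bases and -0.21 for all protein-coding features under 1000 bases. At 1000 bases or more they were -0.15 for the members and -0.0042 for all protein-coding features. Complex IV went from 6 higher and 2 lower to 0 higher and 2 lower, and complex I from 10 higher and 8 lower to 6 higher and 11 lower. Called in the same direction in both fits were 12 members, of which 5 were higher (NDUFA12, NDUFAB1, NDUFC2, NDUFS4 and UQCRC2) and 7 lower (CYC1, NDUFA11, NDUFB10, NDUFB3, NDUFB7, NDUFS5 and NDUFS8). None was called in opposite directions, and 26 of the 78 changed sign.

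Ranked by the fit without the term, the largest fall was that of CYC1, cytochrome c1, the haem protein of complex III that hands electrons to cytochrome c. CYC1 mRNA was at 134, 126 and 111 CPM in the controls, 134, 142 and 144 CPM at 1 µM, 131, 135 and 116 CPM at 10 µM, 109.7, 120.5 and 107 CPM at 100 µM and 51.1, 54.6 and 59.8 CPM at 1000 µM. All 3 libraries at 1000 µM, of sets B and C, lay below every other library. The log2 fold change was -1.17 ± 0.10 (SE, adjusted p = 4.79e-09), and -1.24 ± 0.17 (SE, adjusted p = 1.10e-05) with the set as a term, when ATP5ME, a small subunit of the ATP synthase membrane part, was lower still at -1.31 ± 0.44 (SE, adjusted p = 0.0293). Against 100 µM, which shares no library with the controls, it was -1.03 ± 0.10 (SE, adjusted p = 6.60e-08), and within set B alone it was -1.30 ± 0.07 (SE, adjusted p = 1.05e-08) against 10 µM.

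UQCRC2 (chr16:21952660-21983660; coordinates of genes are on GRCh38, by GENCODE 29), a subunit of the same complex, changed the other way. It was at 179, 185 and 219.7 CPM in the controls, 253, 242 and 254 CPM at 10 µM, 329, 327 and 327 CPM at 100 µM and 312, 324 and 328 CPM at 1000 µM. The groups from 10 µM up did not overlap with the controls, and the 2 highest doses overlapped with each other. The log2 fold change at 1000 µM was 0.72 ± 0.08 (SE, adjusted p = 2.85e-07), and 0.58 ± 0.14 (SE, adjusted p = 0.00268) with the term. UQCRFS1, the Rieske iron-sulfur protein that passes electrons to cytochrome c1, was at 63.7, 70.5 and 92.6 CPM in the controls and 73.5, 77.8 and 73.8 CPM at 1000 µM, which overlap.

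In complex I the largest rise at 1000 µM without the term was that of NDUFS4 (chr5:53560633-53683340), an accessory subunit of the electron input module whose loss in people causes Leigh syndrome. NDUFS4 mRNA was at 12.6, 12.5 and 15.4 CPM in the controls, 21.6, 21.9 and 20.3 CPM at 100 µM and 38.0, 40.3 and 27.6 CPM at 1000 µM. The log2 fold change was 1.39 ± 0.15 (SE, adjusted p = 2.58e-07), and 1.11 ± 0.23 (SE, adjusted p = 0.000919) with the term. NDUFA12, a paralog of an assembly factor, was at 13.6, 15.2 and 16.5 CPM in the controls and 22.6, 25.2 and 33.5 CPM at 1000 µM, and NDUFC2 at 62.8, 59.3 and 74.7 and 178, 185 and 72.7 CPM. For NDUFC2 the third library at 1000 µM, of set C, lay within the range of the controls.

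NDUFS5 (chr1:39026318-39034636) had the largest fall of complex I without the term. It was at 81.7, 87.2 and 109 CPM in the controls, 90.8, 64.0 and 81.6 CPM at 100 µM and 46.3, 47.4 and 46.6 CPM at 1000 µM, so that the 3 libraries at the highest dose lay below all others. The log2 fold change was -0.98 ± 0.15 (SE, adjusted p = 1.23e-05), and -0.74 ± 0.24 (SE, adjusted p = 0.0211) with the term. NDUFB7, which like NDUFS5 faces the intermembrane space, was at 37.5, 35.2 and 30.9 CPM in the controls and 26.5, 26.1 and 20.9 CPM at 1000 µM, and NDUFB3, a small membrane subunit, at 42.9, 45.8 and 51.4 and 33.1, 34.5 and 28.2 CPM. NDUFS8, a catalytic subunit with iron-sulfur clusters, was at 38.6, 42.8 and 35.6 CPM in the controls and 22.1, 21.7 and 40.9 CPM at 1000 µM, where the third library overlapped with the controls. The catalytic core genes of complex I, 7 in all, had 1 called higher and 1 lower at 1000 µM, where 28.5% and 29.1% of all features were, and 0 higher and 2 lower with the term (18.2% and 19.8% of all features).

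In complex IV the largest rise at 1000 µM without the term was that of COX7A2, at 68.2, 75.2 and 72.4 CPM, a log2 fold change of 1.43 ± 0.22 (SE, adjusted p = 1.76e-05) that became 0.43 ± 0.25 (SE, adjusted p = 0.19) with the term. The largest fall was that of COX7B, at -0.48 ± 0.16 (SE, adjusted p = 0.016), a call lost without control replicate 3 or 1000 µM replicate 3 (adjusted p up to 0.129), which with the term was -0.27 ± 0.31 (SE, adjusted p = 0.532). In the ATP synthase ATP5MK, a small subunit of dimers, led with 0.82 ± 0.24 (SE, adjusted p = 0.00732), which became 0.32 ± 0.33 (SE, adjusted p = 0.488).

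**Figure D4:**
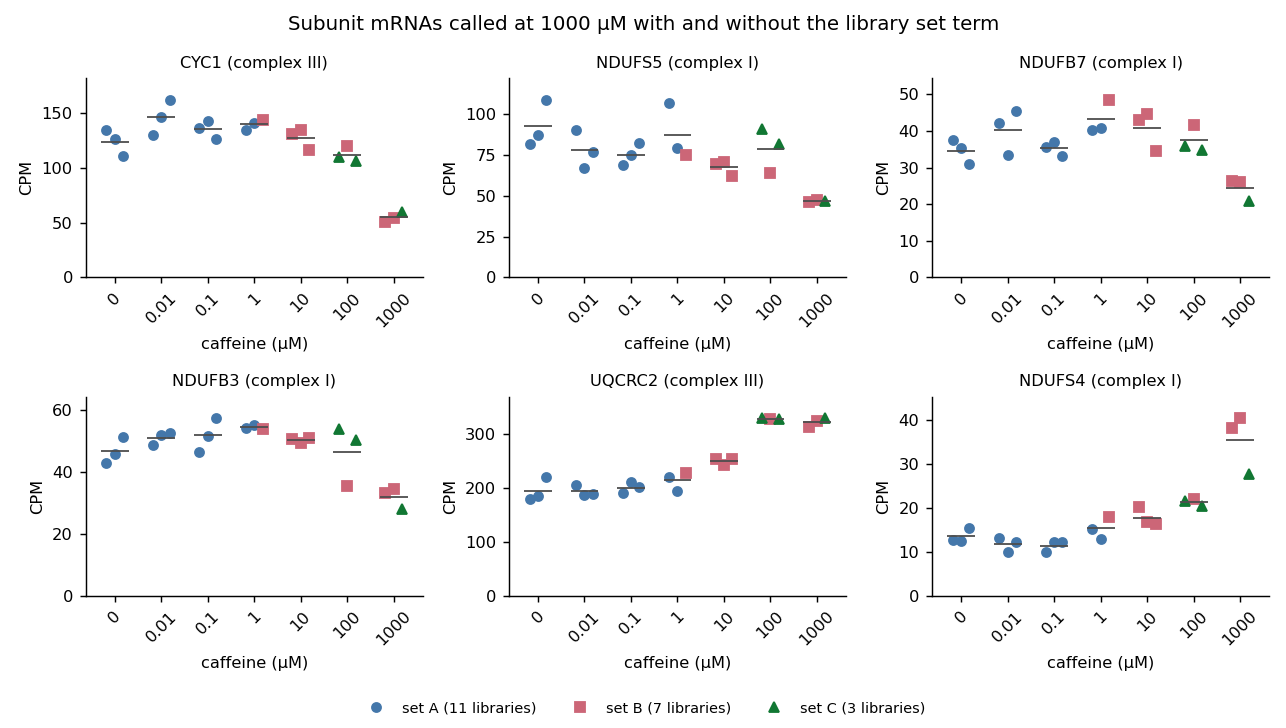
CPM of 6 members called at 1000 µM both without and with the library set as a term, per library, against the caffeine dose in µM; points are libraries, shapes and colours the library sets, grey bars the group means. CYC1 and NDUFS5 are lowest in the 3 libraries at 1000 µM, and UQCRC2 and NDUFS4 are higher there than in any control.

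Promoter sequence just upstream of the start was looked at for the members that changed in both fits, since many nuclear respiratory genes are known to be driven by NRF1 and by GABP, an ETS factor. RefSeq promoters on GRCh38.p14 were matched for 66 of the 83 members, and the 250 bases before the start were searched on both strands. The NRF1 motif, written GCGCA, any base and GCGC, was present in 15 of 66 (22.7%), where 5.08% of 35116 promoters of the same length, and 6.56% of the 22199 of protein-coding genes, hold it. The ETS motif CCGGAAG was present in 17 of 66 (25.8% against 8.52% of all and 10.7% of protein-coding genes), and the cAMP response element TGACGTCA in 4 of 66 (6.06% against 1.65% and 2.01%). Either of the first 2 was present in 30 of 66 (45.5% against 12.8% and 16.2%). Of the 12 members called in both fits at 1000 µM, 9 had a promoter entry, with the NRF1 motif in 2 (NDUFA11 and NDUFA12), the ETS motif in 1 (NDUFB7) and the cAMP response element in none. The 4 sequences shown are those of a riser without a match (NDUFS4, chr5:53560389-53560632, plus strand), a riser with an NRF1 match (NDUFA12, chr12:95003771-95003947, minus strand), a faller with an ETS match (NDUFB7, chr19:14572067-14572316, minus strand) and, for contrast, COX5B (chr2:97645812-97646039, plus strand), which moved with the library sets. Each is the part of the window free of annotated exons, 5′ to 3′ in the direction of the gene, with the matched motif in capitals. A match in letters is not a measured binding site.
NDUFS4: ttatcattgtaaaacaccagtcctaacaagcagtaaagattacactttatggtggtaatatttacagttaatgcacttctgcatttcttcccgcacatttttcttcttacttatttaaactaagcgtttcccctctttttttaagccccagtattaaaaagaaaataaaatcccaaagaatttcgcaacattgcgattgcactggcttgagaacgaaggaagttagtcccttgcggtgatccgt
NDUFA12: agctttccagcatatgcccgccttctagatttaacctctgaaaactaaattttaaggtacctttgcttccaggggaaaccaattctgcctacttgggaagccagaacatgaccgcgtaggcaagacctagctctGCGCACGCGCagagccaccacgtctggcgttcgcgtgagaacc
NDUFB7: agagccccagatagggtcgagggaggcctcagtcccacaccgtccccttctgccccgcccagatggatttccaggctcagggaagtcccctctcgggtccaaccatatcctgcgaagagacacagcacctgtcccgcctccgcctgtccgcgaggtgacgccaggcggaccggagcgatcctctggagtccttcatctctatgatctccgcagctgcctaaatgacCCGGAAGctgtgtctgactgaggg
COX5B: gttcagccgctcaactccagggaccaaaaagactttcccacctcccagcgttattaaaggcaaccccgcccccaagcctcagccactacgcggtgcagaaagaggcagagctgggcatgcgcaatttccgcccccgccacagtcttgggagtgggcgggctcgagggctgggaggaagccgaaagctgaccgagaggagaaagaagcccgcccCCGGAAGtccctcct

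Between the 2 highest doses, 22 members were called at 1000 µM against 100 µM, 1 higher and 21 lower, against 44.0% of all features, with 21.8% higher and 22.3% lower. The median difference was -0.27 for the 54 members under 1000 bases, where all protein-coding features under 1000 bases had -0.24. It was -0.12 for the 24 longer members, where longer protein-coding features had -0.0024. The 1 higher was NDUFS4, at 0.73 ± 0.15 (SE, adjusted p = 0.000576). The lowest per complex were CYC1 (above), NDUFB1, at -1.01 ± 0.39 (SE), COX8A, at -0.47 ± 0.14, and ATP5ME, at -1.17 ± 0.42, with adjusted p-values of 0.0449, 0.0125 and 0.0334. With the set as a term 29 were called, 1 higher and 28 lower, against 46.3% of all features (22.4% higher, 23.9% lower), and 19 of the 22 were called in the same direction. The 3 calls lost were those of NDUFB1 (-0.38, adjusted p = 0.219), ATP5ME (-0.60, adjusted p = 0.079) and NDUFS6 (-0.23, adjusted p = 0.0979). The count was 12 without 100 µM replicate 1, 36 without 100 µM replicate 2, 13 without 1000 µM replicate 1 and 13 without 1000 µM replicate 2. These counts have no share of all features beside them, so they do not show a change particular to the members. The calls of COX8A and ATP5ME were lost without 100 µM replicate 1 or 1000 µM replicate 1 or 2 (adjusted p up to 0.0629 and 0.208), that of ATP5ME also without 100 µM replicate 3, and that of NDUFB1 without any of 15 single libraries (up to 0.316). Without 100 µM replicate 1 the log2 fold change of NDUFB1 was -0.50 and that of ATP5ME -0.70. Within set B 100 µM is 1 library, so the spread behind its comparisons comes from the 10 and 1000 µM libraries of the set, and the lone library is assumed to vary like them. There 44 of 79 tested members were called (13 higher, 31 lower, against 51.0% of features, 23.2% higher and 27.8% lower), and NDUFB1 had the opposite sign, at 0.12. Set B also allows 1000 µM to be compared with 10 µM at an even mitochondrial share and without any control library. In that comparison 58 of 79 members were called, 21 higher and 37 lower, against 65.1% of features (31.5% higher, 33.6% lower), and for 100 against 10 µM 11 were called, 8 higher and 3 lower, against 33.2% (17.8% higher, 15.3% lower).

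The slope on dose rank called 47 members, 40 higher and 7 lower, against 55.3% of all features, with 29.6% higher and 25.7% lower. The steepest in each complex were NDUFA1, at 0.28 ± 0.05 log2 per step of dose (SE), SDHD, at 0.17 ± 0.03, UQCRQ, at 0.22 ± 0.06, COX7A2, at 0.30 ± 0.03, and ATP5MK, at 0.20 ± 0.04. The steepest falls were those of NDUFS5, at -0.10 ± 0.03, CYC1, at -0.14 ± 0.04, and COX6A1, at -0.09 ± 0.02. With the set as a term 2 members were called, NDUFC2 and ATP5MG, both higher, against 4.27% of all features, with 3.12% higher. On linear dose, 28 were called, 14 in each direction, against 56.0% of all features.

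Complex II is the one complex with no mitochondrially encoded subunit, and SDHD was its sole member called at any dose without the set term. SDHB, its iron-sulfur subunit, was at 132, 139 and 153 CPM in the controls and 123, 122 and 127 CPM at 1000 µM, and SDHC, a membrane anchor, at 117, 120.4 and 122 and 119.8, 120.2 and 97.9 CPM. SDHD was at 33.2, 42.1 and 51.1 CPM in the controls, 51.3, 56.9 and 53.2 CPM at 10 µM and 74.7, 74.3 and 61.3 CPM at 1000 µM, a log2 fold change of 0.74 ± 0.17 (SE, adjusted p = 0.000991) that was 0.08 ± 0.24 (SE, adjusted p = 0.839) with the term. SDHA, the flavoprotein that oxidises succinate, differed among replicates, at 60.4, 40.4 and 27.5 CPM in the controls and 72.3, 71.4 and 44.4 CPM at 1000 µM, which overlap. SDHA was called at 1000 µM with the set term alone, at 1.45 ± 0.46 (SE, adjusted p = 0.0233).

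Genes that serve the chain without being subunits were counted from lists. Beside each count at 1000 µM stand 28.5% of all features higher and 29.1% lower, and 18.2% and 19.8% with the set as a term. Of 45 assembly factors, 18 were higher and 7 lower at 1000 µM, and 7 higher and 6 lower with the term, when the shares in both directions were below those of all features. BCS1L, which inserts the Rieske protein into complex III, was at 5.68, 6.08 and 4.6 CPM in the controls and 27.9, 28.9 and 26.9 CPM at 1000 µM, with no overlap. Its log2 fold change was 2.35 ± 0.13 (SE, adjusted p = 1.53e-11), and 1.96 ± 0.20 (SE, adjusted p = 3.34e-07) with the term. TTC19, which also acts on complex III after Rieske insertion, was at 0.96 ± 0.08 and 0.93 ± 0.14 with the term, and ATPAF1, a chaperone of the ATP synthase beta subunit, at 1.20 ± 0.11 and 1.20 ± 0.20, all log2 fold changes with SE.

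Of 14 electron carriers and enzymes of coenzyme Q synthesis, 4 were higher and 4 lower, close to the shares of all features (28.5% and 29.1%), and 3 and 4 with the term (18.2% and 19.8%). CYCS, somatic cytochrome c, the partner of cytochrome c1, was at 51.7, 55.2 and 67.5 CPM in the controls and 166, 173 and 125 CPM at 1000 µM, a log2 fold change of 1.41 ± 0.13 (SE, adjusted p = 3.35e-08) and 1.22 ± 0.24 with the term. COQ5, a methyltransferase of coenzyme Q synthesis, was higher at 1.91 ± 0.16 (1.49 ± 0.24 with the term), and ETFDH, which feeds electrons from fatty acid oxidation into coenzyme Q, lower at -0.89 ± 0.08 (-0.71 ± 0.13 with the term).

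Of 9 transcription factors and coactivators of mitochondrial biogenesis, 8 were tested, and all 8 were higher at 1000 µM, where 28.5% of all features were. With the set as a term 6 were higher and none lower, where 18.2% of features were higher. PPARGC1A, the coactivator PGC-1α, was at 18.1, 16.4 and 19.4 CPM in the controls and 75.1, 77.6 and 62.7 CPM at 1000 µM, with no overlap (adjusted p = 7.82e-11), and the log2 fold change with the term was 2.18 ± 0.21 (SE, adjusted p = 2.40e-07). NRF1 was at 0.72 ± 0.10 and, with the term, 0.65 ± 0.18. GABPB1, the partner subunit of GABP, was at 0.61 ± 0.09 and 0.78 ± 0.16.

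Of 18 genes of mitochondrial transcription and RNA handling, 6 were higher and 4 lower at 1000 µM (all features 28.5% and 29.1%), and 2 and 1 with the term (18.2% and 19.8%). MTPAP, the mitochondrial poly(A) polymerase, was higher at 1.00 ± 0.11 and 0.64 ± 0.16 with the term, and HSD17B10, a subunit of mitochondrial RNase P, was lower at -0.61 ± 0.11 and -0.69 ± 0.19. FASTKD2, an RNA-binding protein of mitochondrial granules, was higher at 0.50 ± 0.09, but its call was lost with the term, at 0.37 ± 0.15 (SE, adjusted p = 0.0596). Of 11 other forms and regulators, 4 were higher and 4 lower, and 2 and 2 with the term. Among them COX7A2L, which joins complexes III and IV, was at 0.95 ± 0.12 and 0.70 ± 0.19 with the term, VDAC2, an outer membrane channel, at 1.26 ± 0.15 and 0.54 ± 0.18, and SLC25A4, an ADP/ATP carrier, at -0.78 ± 0.08 and -0.85 ± 0.13. The mitochondrial mRNAs had 2 of 13 lower at 1000 µM, and 2 with the term. Without the term these were MT-ATP8, at -2.57 ± 0.55 (SE), which was -1.33 ± 0.86 (SE, adjusted p = 0.25) with the term, and MT-CO1, at -1.02 ± 0.29, which was 0.08 ± 0.16 (SE, adjusted p = 0.734). Neither was among the 2 called lower with the term, MT-ND1 and MT-ATP6. The sets were defined on these 13 mRNAs, so their values with the term are no test of dose, and no conclusion is drawn.

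Markers of the cells moved at the same dose. Of the 9 hepatocyte markers, 5 were lower and 2 higher at 1000 µM, and 6 lower and 2 higher with the set as a term, where 29.1% and 28.5% of all features, and 19.8% and 18.2% with the term, were lower and higher. AFP, a serum protein of fetal liver and of liver tumours, was lower at -1.40 ± 0.10 (SE) and -1.39 ± 0.16 with the term, FGB, a fibrinogen chain, at -1.33 ± 0.09 and -1.11 ± 0.14, and TF, transferrin, at -0.81 ± 0.07 and -0.70 ± 0.11. The 2 higher were APOB, the protein of secreted lipoproteins, at 0.71 ± 0.12 and 0.59 ± 0.22, and TTR, transthyretin, at 0.46 ± 0.12 and 1.05 ± 0.16. LYZ was higher at 0.82 ± 0.12 and 0.48 ± 0.17. Their part in the results on the respiratory chain was not tested.

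Named copies bear on 50 members, which have pseudogene copies with their symbol in the annotation, 49 of which are in the count table, and reads of such members are uncertain where the counting could split them between copies. The pseudogenes summed to 78 to 106 CPM in all 21 libraries. The members without a named copy, 28 tested, had 7 higher and none lower at 10 µM, where 7.27% of all features were higher and 7.49% lower. At 1000 µM 7 of the 28 were higher and 7 lower, near the shares of all features (28.5% and 29.1%), which became 3 higher and 10 lower with the set as a term (18.2% and 19.8% of all features).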

How the data were processed

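Gene-level reads of 21 HepG2 libraries were analysed. Per the labels' protocols, RNA was extracted with Trizol, selected on poly(dT) beads, and made into cDNA with the SmartScribe kit. Per the submitters' processing notes, HISAT2, DESeq2 and the build GRCh38 were used. The counting tool, its annotation and its use of strand are not given in the sources used here, so genes that overlap others or have copies are uncertain. The deposited table holds raw counts per feature as whole numbers. Of its 37637 features, 32937 carry Ensembl identifiers and 32264 were matched to a symbol. The table's 21 other per-sample columns were left unused. Total counts were 23502519 to 44815552 per library, and their number limits the precision by counting error only.

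Samples were grouped by the dose in their titles. Low counts were removed with filterByExpr by group, which left 17951 features. These were scaled by TMM and tested with the quasi-likelihood F-test of edgeR 4.0.16 (R 4.3.3, limma 3.58.1) in robust fits of all 21 libraries. Separate fits were made for the group means, the slope, the set as a term and the 2-level split. Sets A and B alone were filtered and fitted anew. P-values were 2-sided, adjusted by Benjamini-Hochberg over all features, with a threshold of 0.05. The standard error is the log2 fold change over the square root of F. CPM used TMM-scaled library sizes. Library sets are average-linkage clusters on 13 mitochondrial mRNAs (centred log2 counts), with 3 clusters at the highest mean silhouette (0.571 against 0.525 for 2). Lengths came from GENCODE 29 (the longest APPRIS principal transcript for levels per kilobase, the median protein-coding transcript for the correlations) and promoters from RefSeq (GRCh38.p14). The fits were tested on simulated data.

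The named genes were, per comparison and complex, the called member with the largest rise and with the largest fall at a mean of at least 5 CPM. To these came the subunits usually followed, the SDH and c-ring genes, the tissue-restricted forms, and up to 3 called genes of each further list with the smallest p at 1000 µM. COX5B, COX7C, NDUFAB1, NDUFC2, NDUFA12, NDUFB7, NDUFB3, NDUFS8, UQCRFS1, NDUFV1, NDUFA9, ATP5MG, NDUFS6, APOB, TTR, MT-ND1 and MT-ATP6 outside that rule, and the genes given by level per length, were chosen after their values were seen. A called gene of the list of other cell types is not reported here. The members, lists and sets were chosen with earlier results of these data known. Alternatives were DESeq2 1.42.0 (Wald test), its size factors in edgeR, scaling without mitochondrial genes, a minimum mean of 5 CPM or no filter, the replicate number as a block, only the 2 groups compared, other dose scales, each library left out, the set as a term, a 2-level split at a mitochondrial share of 8%, and sets A or B alone (chosen after seeing the data).

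No 2 replicates agreed within counting noise (chi-square per feature of at least 3.59). The highest value was 162.5, for 100 µM replicates 1 and 2. Control replicate 3 gave 50.9 and 42.0 against control replicates 1 and 2, which gave 9.76 with each other. All 3 correlations of same-numbered replicates' deviations were over 0.1 in 2 of 21 pairs of groups, control with 0.1 µM and control with 10 µM. The mean correlation ran from -0.34 to 0.26 over the 21.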

Additional observations from a re-analysis of the deposited data

How the results depend on the processing

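The counts of members called kept within 1.5 times their value under every alternative run but those named here. The set as a term gave 1 call at 0.01 µM, 0 at 10 µM, 5 at 100 µM and 2 for the slope, and at 1000 µM the split went from 21 higher and 12 lower to 9 and 20. DESeq2 called 2 at 0.01 µM and 3 at 1 µM. The linear dose scale gave 28 for the slope, set B alone gave 44 for 1000 against 100 µM, and no filter gave 33 for set B against set A. With the replicate number as a block, set B against set A gave 10 and 10 µM gave 23, and no other count of calls moved by over 1.5 times. The 2-level split of mitochondrial share gave 25 in place of 20, with 15 higher and 10 lower. Leaving out 1 library gave no call at 0.01 µM (0 to 0) or 0.1 µM (0 to 0). The 1 µM count ran from 0 to 1, the 10 µM count from 8 to 27, the 100 µM count from 33 to 48 and the 1000 µM count from 31 to 36. The ranges were 12 to 36 for 1000 against 100 µM, 42 to 48 for the slope, 4 to 26 for set B against set A and 24 to 37 for set C against set B. Set B against set A could not be estimated without 1 µM replicate 3. Set C against set B went from 27 higher and 6 lower to 15 and 9 without 100 µM replicate 2, and to 27 and 14 with no filter.

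Of the 1933 log2 fold changes of named genes under the alternatives, 1836 kept their direction and call, 89 kept the direction but lost the call, and 8 changed sign. With the set as a term alone, 26 kept direction and call, 24 lost the call and 6 changed sign. These 6 were NDUFA2 at 10 µM (-0.090), SDHD at 100 µM (-0.089), UQCRQ at 100 µM (-0.16), the slopes of NDUFA1 (-0.050) and UQCRQ (-0.11), and MT-CO1 at 1000 µM (0.080). Within set B, NDUFB1 at 1000 against 100 µM was 0.12, and with the 2-level split UQCRQ between the sets was -0.57. The cause was not tested. The 1 set B library at 1 µM limits the comparisons of 10 µM or more with control that use the set as a term, and set B against set A.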
